A study of Rattus norvegicus with 102 samples.

Results

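The transcripts of 5 genes of the neurotrophin system, Bdnf, Ntf3, Ntrk2, Ntrk3 and Ngfr, were measured in the CA1, CA3 and dentate gyrus (DG) of the rat hippocampus. The genes were taken by symbol from 3 tables of normalised read counts, and each of the 5 was found once among 26284 genes in the Illumina and WT tables and once among 26341 genes in the Ion Proton table. All animals were male rats of the Fisher 344 strain, and the labels give no treatment or engineered allele for any of them. The groups were 10 young rats of 5 to 6 months (labelled Y), 12 aged unimpaired rats (labelled OG) and 12 aged impaired rats (labelled OB), the aged rats being 17 to 22 months old and classed by a water maze test of spatial memory. Each of the 34 rats gave 1 piece of each subfield, so a table held 34 libraries per subfield. The sources differ on whether the pieces came from the dorsal hippocampus or from along its length. Poly-A RNA of every sample was read on 2 platforms, Illumina and Ion Proton, and a further table named WT, whose library type was not given in the sources used here, served as an additional reading.

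Neurotrophins are secreted growth factors that act on neurons through receptor tyrosine kinases of the Trk family and through p75, a receptor of the tumour necrosis factor receptor family. Bdnf encodes brain-derived neurotrophic factor, whose main receptor is TrkB (encoded by Ntrk2), and Ntf3 encodes neurotrophin-3, whose main receptor is TrkC (encoded by Ntrk3). Ngfr encodes p75, which binds every neurotrophin and their uncleaved precursors and in the adult forebrain is best known from cholinergic neurons. In the hippocampus, Bdnf is induced by neuronal activity and acts on synaptic plasticity, and dentate granule cells and their mossy fibres are a well known site of its synthesis.

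Values are normalised reads, that is, reads assigned to a gene divided by a size factor of the library. They compare libraries for 1 gene and not levels of different genes, since gene length was not accounted for. Depth per library was 3246922 to 42750899 assigned reads in the Illumina table, 4470473 to 21434160 in the Ion Proton table and 3539310 to 20625745 in the WT table. Summed CA1 pyramidal markers had a median of 16820 normalised reads in libraries labelled CA1, against 7003 in CA3 and 3683 in DG. Summed dentate granule markers had a median of 5333 in DG, against 3085 in CA1 and 1331 in CA3. By both poly-A readings 11 libraries (1 labelled CA1, 7 labelled CA3 and 3 labelled DG) had marker levels nearer to another subfield than to their own label, and they came from 8 rats that were all numbered from 9000 up. The rats fall into 2 series of numbers, with 18 numbered below 9000 and 16 from 9000 up, and the labels do not say what the series stand for. Summed CA3 pyramidal markers separated CA3 from DG less well, above all in the upper series. Their medians in CA3, DG and CA1 were 19500, 13656 and 6805 in the lower series and 14049, 13160 and 7781 in the upper. The study tested its rats at a pair of sites, in Florida and Arizona, with different suppliers, and the sites held the same numbers of young and of aged rats as the lower and the upper series, in that order. No label ties a rat to a site, so site, supplier and number series cannot be told apart here.

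The promoter letters available for the set are those of both ligands, since 2 of the 5 genes were matched by symbol in RefSeq's table of windows from 250 bases before to 50 bases after a transcript start (GRCr8). Bdnf had 6 such windows, one for each of its listed starts, and Ntf3 had 3. A single window of each gene is printed below. Bdnf is transcribed from several promoters whose reads are summed in a gene count. The Bdnf window at chr3:116637608-116637907 (plus strand) is the single one of the 6 that holds TCACGTCA, in capitals here, a variant of the cyclic AMP response element TGACGTCA through which CREB acts on activity-dependent genes.
Bdnf: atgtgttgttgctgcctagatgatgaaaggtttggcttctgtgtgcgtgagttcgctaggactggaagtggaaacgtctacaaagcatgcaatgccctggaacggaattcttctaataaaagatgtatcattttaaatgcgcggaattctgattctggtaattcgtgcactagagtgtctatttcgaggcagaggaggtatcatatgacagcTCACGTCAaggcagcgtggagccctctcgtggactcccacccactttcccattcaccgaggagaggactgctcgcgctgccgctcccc
Read on both strands, TCACGTCA was present in 0.4% of 33469 windows of all genes and TGACGTCA in 1.83%. The window of Ntf3 at chr4:160670574-160670873 (minus strand) holds neither of these motifs, and no stretch can match both at the same start.
Ntf3: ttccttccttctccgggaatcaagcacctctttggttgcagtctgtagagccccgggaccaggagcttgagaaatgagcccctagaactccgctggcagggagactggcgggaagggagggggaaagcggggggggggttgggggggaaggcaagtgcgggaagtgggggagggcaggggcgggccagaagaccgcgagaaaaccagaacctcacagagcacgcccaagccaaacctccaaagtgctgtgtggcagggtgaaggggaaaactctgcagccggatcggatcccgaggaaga
No build was shared with the tables, which were made on rn5 and give only chromosomes (Bdnf on 3, Ntf3 on 4, Ntrk2 on 17, Ntrk3 on 1 and Ngfr on 10), and reads of separate Bdnf promoters were not counted apart.

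Bdnf (ENSRNOG00000047466) was about 2 times as abundant in DG as in either pyramidal field, and the difference between CA1 and CA3 did not pass the test. In the Illumina table its level ranged from 340 to 1150.05 normalised reads with a median of 799.6 in DG, from 126 to 651 with a median of 418 in CA1, and from 133 to 606 with a median of 404 in CA3. The groups overlapped, but within a rat the DG library was above the CA1 library in 30 of 34 rats and above the CA3 library in 32 of 34. The mean was 789 ± 198 (SD, n = 34) in DG, 395 ± 132 in CA1 and 389.6 ± 124 in CA3. On the log2(value + 1) scale the difference of CA1 from DG was -1.04 ± 0.12 (SE; adjusted p = 2.59e-12, limma with Benjamini-Hochberg adjustment over all genes tested) and that of CA3 from DG was -1.05 ± 0.12 (adjusted p = 1.23e-12). The Ion Proton table gave -1.001 and -1.11 and the WT table -1.07 and -1.16 for the same contrasts. For CA1 against CA3 the Illumina difference was 0.02 with a 95% interval from -0.22 to 0.25.

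Ntf3 (ENSRNOG00000019716) had a graded order, with DG above CA1 and CA1 above CA3. Its Illumina level ran from 54.7 to 241 normalised reads with a median of 160.5 in DG, from 30.3 to 178 with a median of 85.1 in CA1, and from 10.5 to 169.8 with a median of 48.4 in CA3. The full order was found within 23 of 34 rats, while CA1 was above CA3 in 29 rats and DG above CA3 in 32, although the 3 distributions overlapped. In the Ion Proton table the full order was found within 18 rats and CA1 was above CA3 in 23, and in the WT table within 23 and in 25. Ntf3 was the single member to pass the threshold between CA1 and CA3, with a log2 difference of 0.73 ± 0.15 (adjusted p = 2.82e-05 by limma) in the Illumina table and 0.61 ± 0.17 (adjusted p = 0.00688) in the Ion Proton table. Against DG the differences were -0.86 ± 0.15 for CA1 and -1.59 ± 0.15 for CA3, the latter the largest of any member in this table. The CA1 to CA3 difference was 1.08 in rats numbered below 9000 and 0.34 (adjusted p = 0.408) in rats numbered from 9000 up, where it did not pass. Leaving out the 11 libraries nearer to another subfield gave 0.89, -0.93 and -1.82 for the 3 contrasts.

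**Figure D1:**
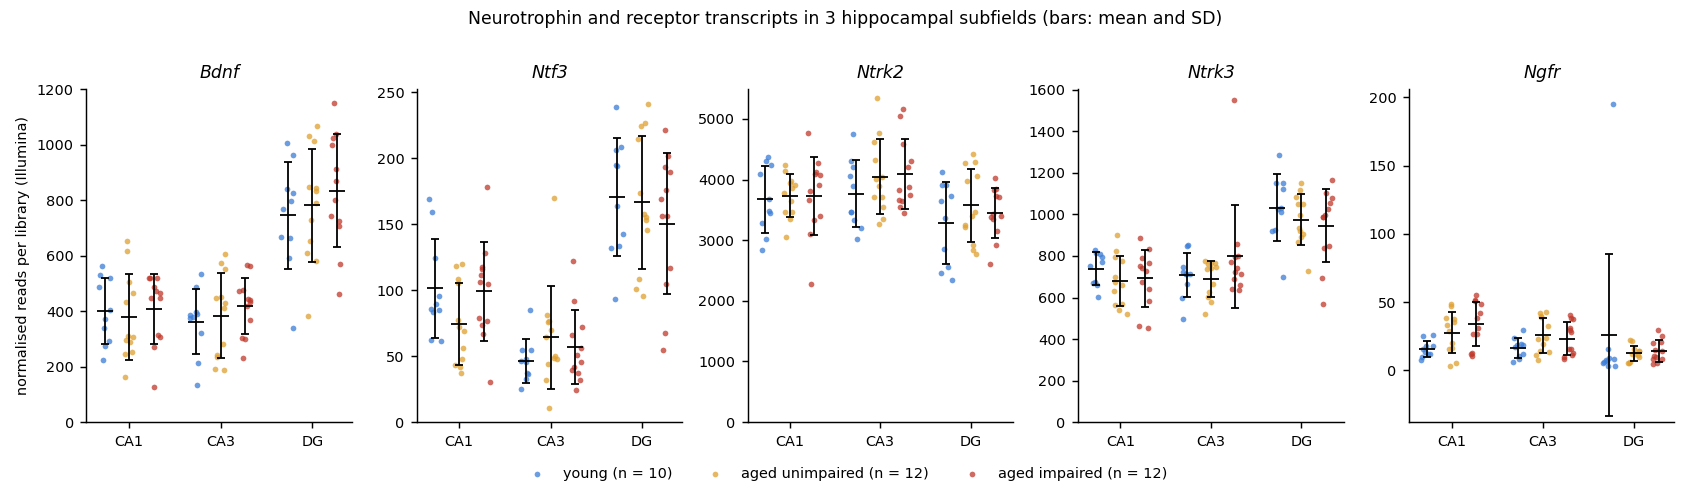
Normalised reads of each gene (vertical axes, linear and different for each gene) in every Illumina library by subfield, with young, aged unimpaired and aged impaired rats as coloured points and the mean and SD of each group as black bars. Bdnf, Ntf3 and Ntrk3 sit highest in DG, the 3 groups of rats overlap within each subfield, and the young DG library at 194.9 normalised reads of Ngfr stretches the SD of its group below 0.

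In the comparisons with DG the Trk receptors differed by less than the ligands, and in opposite directions. Ntrk3 (ENSRNOG00000018674), like its ligand Ntf3, was highest in DG, with 567 to 1288 normalised reads (median 1005) there, 454 to 899 (median 714) in CA1 and 499 to 1550 (median 722) in CA3. DG was above CA1 in 30 rats and above CA3 in 29 of 34. The log2 difference from DG was -0.49 ± 0.06 for CA1 (adjusted p = 9.51e-11 by limma) and -0.43 ± 0.06 for CA3 (adjusted p = 4.41e-09), and it was -0.29 and -0.30 in the WT table. CA1 and CA3 differed by -0.06, with an interval from -0.18 to 0.07. The highest CA3 value, 1550 in aged impaired rat R9875, came from one of the 11 libraries named above and was 787 in the Ion Proton table, where it did not stand out from the other CA3 libraries (482 to 958).

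Ntrk2 (ENSRNOG00000018839) was lower in DG than in CA3 and had a narrow range. Its level was 2336 to 4414 normalised reads (median 3418) in DG, 2278 to 4769.5 (median 3797) in CA1 and 3028 to 5343 (median 3880.4) in CA3. CA3 was above DG in 31 of 34 rats, with a log2 difference of 0.21 ± 0.05 (adjusted p = 0.000396 by limma) in the Illumina, 0.23 in the Ion Proton and 0.14 in the WT table. It was 0.18 in rats numbered below 9000, where the Ion Proton table missed the threshold (adjusted p = 0.0795), and 0.25 in those from 9000 up. Over the 34 rats of a subfield, Ntrk2 levels in the WT table did not follow those of the Illumina table (r = -0.392 in CA1, -0.0587 in CA3 and -0.0304 in DG), whereas those of the Ion Proton table did (0.693 to 0.856). CA1 against DG gave 0.11 (interval 0.01 to 0.22, adjusted p = 0.06) in the Illumina table and 0.22 (adjusted p = 0.00199) in the Ion Proton table, so it missed the requirement of passing in both. With the rat as a replicate block the same difference of 0.11 had an adjusted p of 0.00694 in the Illumina table and passed in both, which raised the members called between CA1 and DG from 4 to 5. CA1 against CA3 was -0.10 (interval -0.20 to 0.01). Truncated and full-length TrkB come from the same gene and were not counted apart.

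Ngfr (ENSRNOG00000005392) was lowest in DG, the reverse of the ligands. It was a scarce transcript, with 3 or fewer reads in 2 Illumina, 10 Ion Proton and 15 WT libraries, so its values carry a large counting error. Illumina levels were 3.13 to 55.0 normalised reads (median 25.4) in CA1, 5.81 to 42.7 (median 19.0) in CA3 and 2.83 to 194.9 (median 10.2) in DG. CA1 was above DG in 31 rats and CA3 above DG in 29, while CA1 was above CA3 in 21 and the difference of 0.18 had an interval from -0.26 to 0.62. The log2 difference from DG was 0.91 ± 0.22 for CA1 (adjusted p = 0.000276 by limma) and 0.74 ± 0.22 for CA3 (adjusted p = 0.00309). The CA3 difference passed in both poly-A tables but was 0.39 (adjusted p = 0.203) with edgeR and 0.38 (adjusted p = 0.191) with DESeq2 on the recovered reads, and without the dentate library of young rat R9881 it was 0.86 by limma. In rats numbered below 9000 it was 0.80 and in those from 9000 up 0.67, and it passed in neither series. For CA1 the difference was 0.599 (adjusted p = 0.152) in rats numbered from 9000 up and 1.196 in the others.

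**Figure D2:**
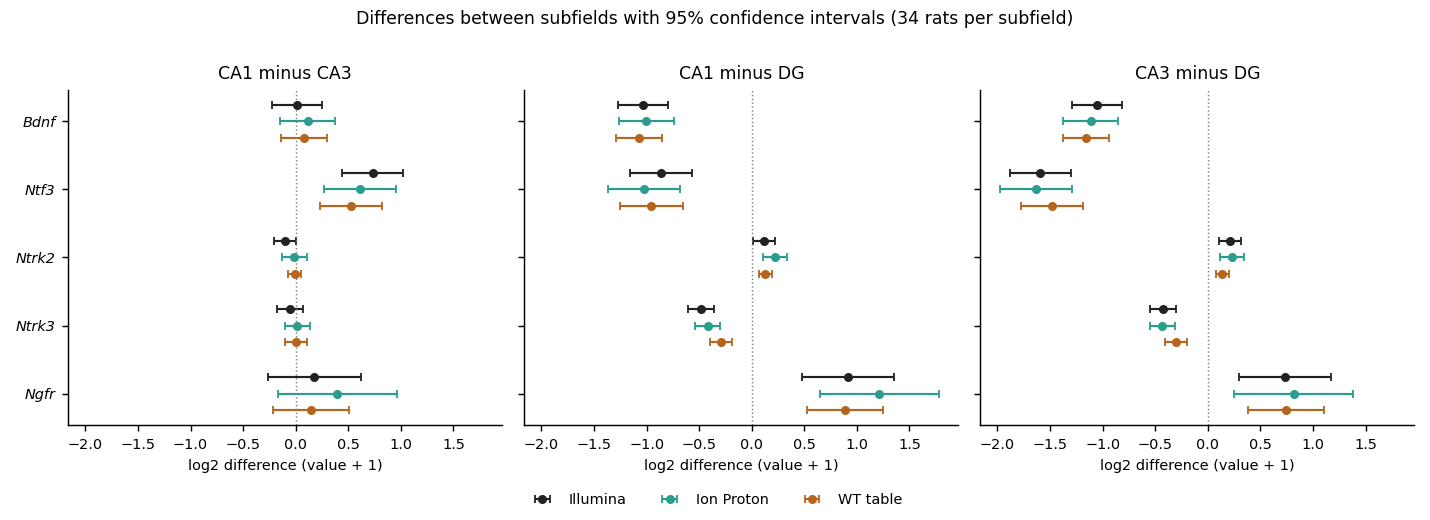
Log2 differences between subfields (horizontal axes, on log2(value + 1)) for each gene, as points with 95% confidence intervals, in the Illumina, Ion Proton and WT tables (34 libraries per subfield and table). The 3 tables lie on the same side of 0 for every gene against DG, and for CA1 minus CA3 the intervals of Ntf3 are the ones that leave out 0 in all tables.

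Counted together, 1 of 5 members passed between CA1 and CA3, where 14.4% of all genes tested did so. Between CA1 and DG 4 of 5 passed, against 26.9% of all genes, and between CA3 and DG all 5 passed, against 28.5%. In rats numbered below 9000 alone 3 of 5 passed between CA3 and DG, beside 23.4% of all genes, the calls of Ntrk2 and Ngfr being lost. These were bulk pieces of tissue, in which fewer cells of a type and less RNA per cell cannot be told apart. Markers of glia also moved between the same pieces. Over all rats, all 7 oligodendrocyte markers were higher in CA1 and in CA3 than in DG, and their summed level was 45362 to 219774 normalised reads in DG, from 74968 to 293881 in CA1 and from 55498 to 384949 in CA3, with no marker at 0. Their summed medians in CA3 and DG were 161474 and 55758 in rats numbered below 9000, and 114234 and 120241 in those from 9000 up. Of the 8 astrocyte markers, 0 passed between CA1 and DG and 2 were higher in CA3 than in DG. The part of these cells in the differences of Ntrk2 and Ngfr, both of which glia can express, was not tested.

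The genes whose levels followed each member most closely over all Illumina libraries were found by Pearson's r on log2(value + 1) among 14178 other genes. The libraries share 34 rats, 3 subfields and their size factors, so r is given as a description. Bdnf was followed by Lgi1 (r = 0.949, and 0.81 in the Ion Proton table), Map2k1 (0.944 and 0.725) and Ehd3 (0.942 and 0.858), of which Lgi1 encodes a secreted synaptic protein mutated in inherited epilepsy and Map2k1 the kinase MEK1. Within CA1, CA3 and DG taken alone Lgi1 kept r = 0.881, 0.944 and 0.887. Ntf3 was followed by Tle1 (0.915 and 0.85), a transcriptional co-repressor, Rgs10 (0.909 and 0.851), a regulator of G protein signalling, and Filip1 (0.893 and 0.814). Ntrk3 was nearest to Mkl1 (0.915), Celf2 (0.914) and Mpdz (0.911), and in the Ion Proton table only Mpdz, a scaffold protein with PDZ domains, held a value of that order (0.882, against 0.476 and 0.566). The nearest genes to Ntrk2 were Aldh5a1 (0.875), Lrrc58 (0.872) and Fam63b (0.853), at 0.324, 0.572 and 0.48 in the Ion Proton table. For Ngfr they were Col2a1 (0.734), Ass1 (0.702) and Mid1ip1 (0.692), at 0.471, 0.58 and 0.493.

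Ntf4, the gene of a further ligand of TrkB, was below the limit of a mean of 10 and was not tested. Of the 8 receptor genes tested, members included, 3 were higher and 1 lower in CA1 than in DG (26.9% of all genes called), and 4 were higher and 1 lower in CA3 than in DG (28.5%). The sorting receptor genes Sorcs1 and Sorcs2 were higher in both pyramidal fields than in DG. Sorcs1 differed by 0.37 for CA1 and 0.40 for CA3, and Sorcs2 by 0.26 and 0.38.

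Among 5 tested genes for the cleavage and sorting of neurotrophin precursors, Plat, which encodes tissue plasminogen activator, was lowest in DG, with log2 differences of 0.30 for CA1 and 0.56 for CA3. It was lower in CA1 than in CA3 (log2 difference -0.26), as was Cpe, a carboxypeptidase that sorts the BDNF precursor (-0.24), and these were among 3 lower genes, beside 14.4% of all genes called. Mmp9, a secreted metalloproteinase, was higher in CA1 than in DG by 1.31, with means of 72.9 and 28.3. Of 15 Trk adaptors 6 passed between CA1 and DG, where 26.9% of all genes did, and 8 between CA3 and DG, where 28.5% did, with as many or nearly as many genes higher as lower (3 and 3, then 5 and 3). Gab1 led both, at 0.55 and 0.71, followed by Ptpn11, the phosphatase SHP2, at 0.36 and 0.38. Grb2 was the 1 adaptor called between CA1 and CA3 (0.11), where 14.4% of all genes were called. Of the 7 partners and adaptors of p75 tested, Ngfrap1 was the 1 called between CA1 and DG (-0.20), beside 26.9% of all genes. Between CA3 and DG 2 were lower and 1 higher, beside 28.5% of all genes, with Rtn4r, the Nogo receptor, at -0.53 and Lingo1 at 0.24.

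Among 16 kinases and effectors downstream of Trk, 9 passed between CA1 and DG, 6 of them lower in CA1, beside 26.9% of all genes. Map2k1 had the largest difference, at -0.56 (means 3118 in CA1 and 4604 in DG), and Rps6ka1, a ribosomal S6 kinase, was higher in CA1 by 0.51. Between CA3 and DG 5 were lower in CA3 and 1 higher, beside 28.5% of all genes, and the largest were Rps6ka2 at -0.80 and Rps6ka1 at 0.71. Between CA1 and CA3 Rps6ka2 (0.47) and Akt2 (0.17) led 3 higher genes and 1 was lower, beside 14.4% of all genes.

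Several genes known to respond to BDNF were higher in CA1 than in DG, whereas Bdnf itself was lower in CA1. Of 10 tested, 4 were higher in CA1 than in CA3 and 0 lower, beside 14.4% of all genes called, with a list median of 0.41 beside 0.01 over all genes tested, although Bdnf differed by 0.02. Arc, an activity-induced synaptic gene, led with 0.74 and was followed by Egr1, an immediate early transcription factor, with 0.68. Between CA1 and DG 6 were higher in CA1 and 0 lower, beside 26.9% of all genes called, with a median of 0.57, while Bdnf differed by -1.04. Egr2 (1.0999) and Arc (1.01) led, and Arc had a mean of 1704 in CA1, 849 in DG and 1020.2 in CA3 (normalised reads). Between CA3 and DG 3 were higher and 2 lower, beside 28.5% of all genes called, the largest being Egr2 (0.67) and Spry2 (-0.49), a feedback inhibitor of receptor tyrosine kinases. These genes also respond to other signals.

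**Figure D3:**
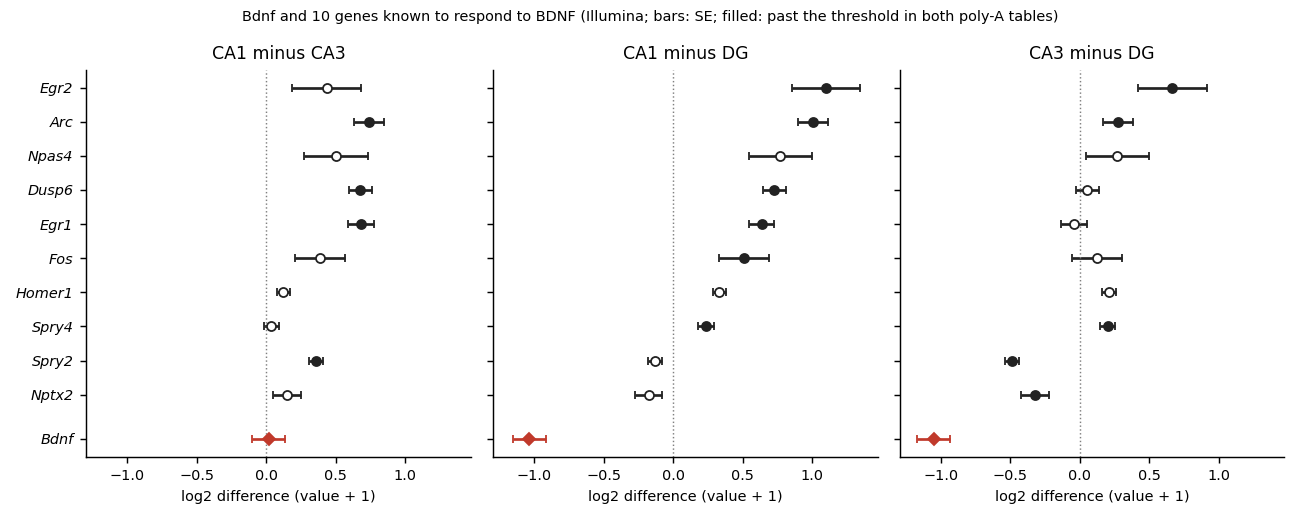
Log2 differences between subfields (horizontal axes, Illumina, on log2(value + 1)) for Bdnf (diamond) and 10 genes known to respond to BDNF (circles, filled where the threshold was passed in both poly-A tables), with SE bars. Bdnf lies near -1 in both comparisons with DG, whereas 6 response genes, led by Egr2 and Arc, lie above 0 and are filled for CA1 minus DG.

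Age was compared within each subfield, 24 aged against 10 young rats, to ask whether ligand or receptor transcripts change over adult life. No member passed in any subfield by limma (0 of 5 in each), where 0.31% of all genes passed in CA1, 0% in CA3 and 0.292% in DG. Without the dentate library of young rat R9881 the genes that passed in DG went from 41 to 82 (0.586%). With all libraries no member met the study's own rule either, an unadjusted p under 0.01 in the Illumina table retested one-sided in the Ion Proton table, which 0.844%, 0.373% and 1.08% of genes met. The p-values used for this rule were those of limma, whereas the study took them from DESeq2. At an unadjusted p under 0.05 the Illumina table held 1 of the 15 tests, Ngfr in CA1, beside 6.11%, 3.28% and 5.16% of all genes in CA1, CA3 and DG. On the recovered reads edgeR and DESeq2 also called 0 of 15. Over all genes in CA1, CA3 and DG, edgeR called 0.162%, 0.0562% and 0.257% and DESeq2 0.402%, 0.126% and 0.449%. At an unadjusted p under 0.05 they held 2 and 3, all Ngfr, and the share of all genes at that p was not computed for them. With edgeR Ngfr in DG was lower in aged rats, opposite to limma, as given below.

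Bdnf levels in CA1 were 223 to 563 normalised reads (median 387) in young rats, 163 to 651 (median 308) in aged unimpaired rats and 126 to 520.2 (median 456) in aged impaired rats. The 3 groups overlapped over most of their range. The aged minus young difference was -0.07 in CA1 (95% interval -0.47 to 0.34), 0.16 in CA3 (-0.23 to 0.55) and 0.12 in DG (-0.18 to 0.42). Ntf3 gave -0.27 in CA1 (-0.70 to 0.16), 0.25 in CA3 (-0.27 to 0.78) and -0.15 in DG (-0.52 to 0.23). For the Trk receptors the intervals were narrower. Ntrk2 lay between 0.02 and 0.11 in the 3 subfields, with no bound beyond -0.14 or 0.29, and Ntrk3 between -0.12 and 0.06, with no bound beyond -0.31 or 0.25.

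By limma in the Illumina table, Ngfr in CA1 had the largest difference with age. Young rats had 7.68 to 25.9 normalised reads (median 14.7), aged unimpaired rats 3.13 to 48.3 (median 31.0) and aged impaired rats 10.7 to 55.0 (median 34.6). The groups overlapped, and 19 of 24 aged rats were above the young median. The log2 difference was 0.75 (interval 0.103 to 1.398, unadjusted p = 0.0244, adjusted p = 0.674 by limma), with 0.41 in the Ion Proton and 0.54 in the WT table, none of which passed. It was 1.02 in rats numbered below 9000 and 0.39 in those from 9000 up. Microglial markers, of which 3 of 7 passed or met the study's rule in this comparison (0.31% of all genes passed and 0.844% met the rule), had summed medians of 4020.1 normalised reads in young, 5030.0 in aged unimpaired and 4721 in aged impaired rats, and oligodendrocyte markers of 109053, 142565 and 128113. Their part in the Ngfr values was not tested.

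In the other subfields Ngfr did not pass with age either. In CA3 it was 5.81 to 29.3 normalised reads (median 17.9) in young and 7.60 to 42.7 (median 23.1) in aged rats, with a log2 difference of 0.50 (interval -0.07 to 1.07), which was 1.22 in rats numbered below 9000 and -0.32 in those from 9000 up. In DG the young median was 7.39 and the aged median 11.9, and 19 of 24 aged rats were above the young median (14 in the Ion Proton and 21 in the WT table), while the means were 26.1 in young and 13.3 in aged rats. The library of young rat R9881 set the young mean. With it the log2 difference in DG was 0.28 by limma (interval -0.50 to 1.05) and -0.93 with edgeR, and without it 0.75 by limma (unadjusted p = 0.00878, adjusted p = 0.374). The unadjusted p without it is under the 0.01 of the study's rule, and its Ion Proton retest is not reported here.

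Among the aged rats, 12 impaired were compared with 12 unimpaired. By limma 0 of 5 members passed in each subfield, beside 0% of all genes in each, and 0 met the study's rule, which 0.599% of genes met in CA1, 0.0359% in CA3 and 0.138% in DG. No member had an unadjusted p under 0.05 in the Illumina table, where 6.05%, 1.75% and 3.6% of all genes did. In CA1 the difference of impaired from unimpaired rats was 0.13 for Bdnf (95% interval -0.31 to 0.57), 0.41 for Ntf3 (-0.05 to 0.87), -0.02 for Ntrk2 (-0.19 to 0.16), 0.02 for Ntrk3 (-0.18 to 0.22) and 0.40 for Ngfr (-0.30 to 1.105). Ntf3 gave 0.01 in the Ion Proton and -0.02 in the WT table, and Ngfr gave 0.63 and 0.59 in these and did not pass in either.

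In CA3 and DG the differences between impaired and unimpaired rats did not pass either. Bdnf was 418 ± 102.1 normalised reads in CA3 of impaired and 384 ± 152 in unimpaired rats (log2 difference 0.19, interval -0.23 to 0.62), and 834 ± 203 against 781 ± 204 in DG (0.10, -0.23 to 0.43). Ntf3 in DG was 150.4 ± 53.4 in impaired and 166 ± 50.7 in unimpaired rats (-0.19, -0.60 to 0.22). Ntrk3 in CA3 had 0.18 (-0.04 to 0.39), which holds the library of rat R9875 at 1550. In the Ion Proton table, where that library held 787, Ntrk3 gave 0.17 (-0.02 to 0.36) and 9 of 12 impaired rats were above the unimpaired median, and in the WT table it gave -0.0037. Without the 11 libraries nearer to another subfield, that of rat R9875 among them, the Illumina difference was 0.08. Of the genes in the pathway lists, 1 met the study's rule in the 6 comparisons of age and cognition, Rps6ka2, higher in CA1 of impaired rats by 0.36 ± 0.12 with an adjusted p of 0.63 by limma, beside 0.599% of all genes that met the rule there. In the others 0.844%, 0.373% and 1.08% of all genes met it (age in CA1, CA3 and DG), and 0.0359% and 0.138% (cognition in CA3 and DG). A test of whether an age or cognition difference varied between subfields called 0 of 30 (15 each, limma) beside 0% of all genes, the smallest unadjusted p being 0.106 for age and 0.0884 for cognition.

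**Figure D4:**
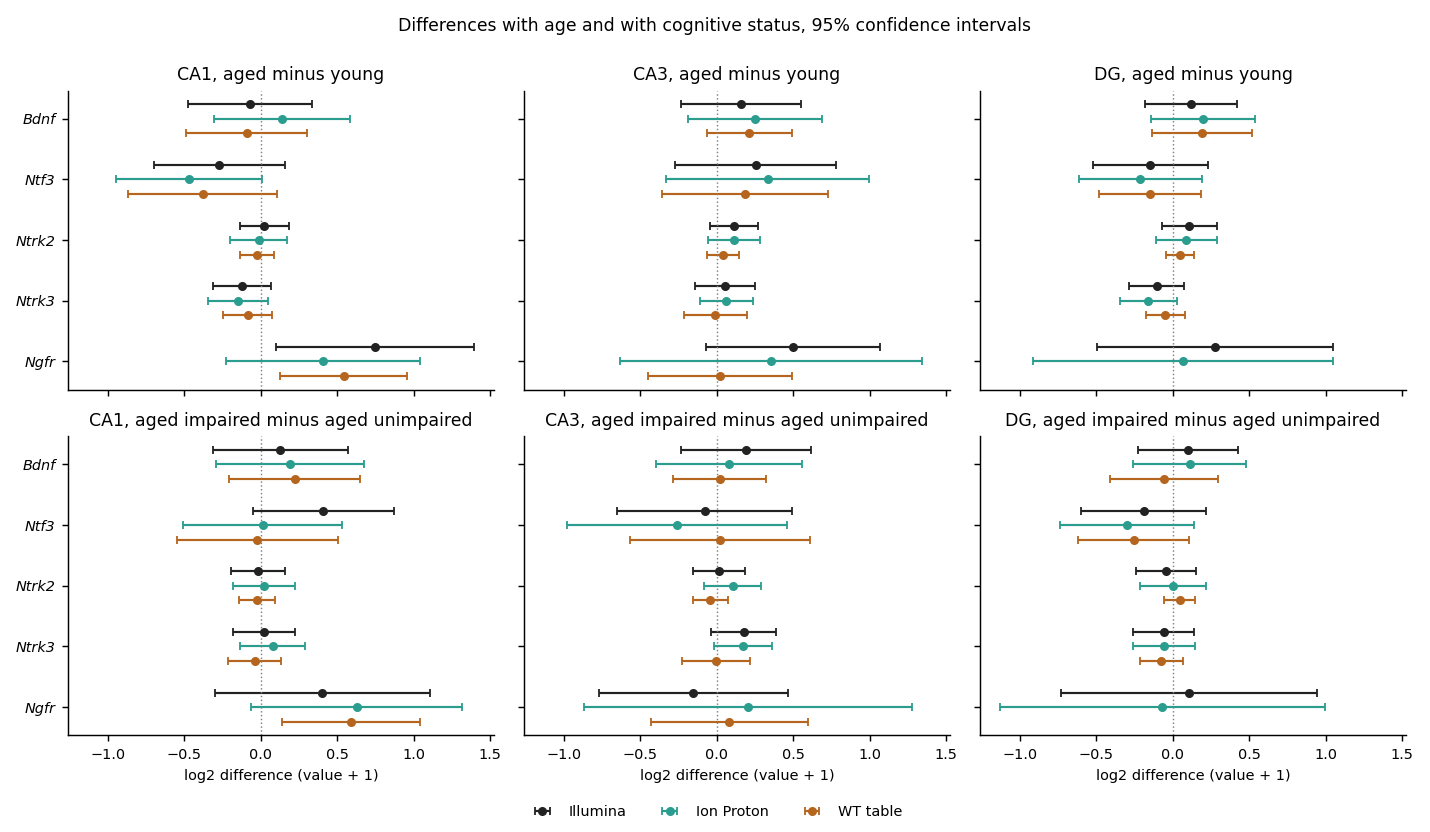
Log2 differences (horizontal axes, on log2(value + 1)) of aged from young rats (24 and 10, upper row) and of impaired from unimpaired aged rats (12 and 12, lower row) in each subfield, with 95% confidence intervals, in 3 tables. Most intervals hold 0, the exceptions being Ngfr in CA1 with age (Illumina and WT) and with cognition (WT), and Ngfr is missing for DG in the WT table, where its mean was under the limit for testing.

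Some members differed between the series of rat numbers, whereas none passed for age or cognition. This comparison was added after the data were seen, with the 3 groups of rats as terms of the fit, and it describes a difference between sets of rats whose numbers match those of the study's sites, with no label that gives the site of a rat. Bdnf was lower in rats numbered from 9000 up in every subfield. Its means in the lower and upper series were 907 ± 149 (n = 18) and 658 ± 161 (n = 16) normalised reads in DG, 457 ± 112 and 326 ± 118 in CA1, and 453 ± 77.8 and 319 ± 131 in CA3. The values of the series overlapped in each subfield. For CA1, CA3 and DG the log2 differences were -0.54 (adjusted p = 0.0088 by limma), -0.58 (0.00125) and -0.48 (0.000974) in the Illumina table, with -0.58, -0.51 and -0.52 in the Ion Proton and -0.53, -0.30 and -0.44 in the WT table.

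Ntrk3 was lower in the upper series in CA1 (-0.25) and in DG (-0.29), both past the threshold in the poly-A tables, and differed by 0.01 in CA3. The DG call of Ntrk3 was lost without the 11 libraries nearer to another subfield (-0.23), without the 7 most deeply sequenced rats (-0.26) and without the dentate library of rat R9881 (-0.26), in each case in the Ion Proton table. In all, 2 of 5 members passed in CA1, 1 in CA3 and 2 in DG, beside 7.68%, 18.6% and 13.2% of all genes. Without the 11 libraries nearer to another subfield the Bdnf differences were -0.54, -0.77 and -0.38, and that of CA1 then missed the threshold in the Ion Proton table (adjusted p = 0.053). The Bdnf call in CA1 was also lost with edgeR and with no filter, and that in CA3 with edgeR, with DESeq2, with no filter and without the deeply sequenced rats, again in the Ion Proton table and with the direction kept. Ntrk2 was higher in the upper series in CA3 by 0.28 in the Illumina table (means 4403 and 3608), 0.19 in the Ion Proton table (adjusted p = 0.0535) and 0.03 in the WT table. Summed dentate granule markers in DG had a median of 6394 normalised reads in the lower and 4698 in the upper series, and oligodendrocyte markers 55758 and 120241. In CA1 these medians were 3545 and 2219 for dentate granule and 109053 and 188025 for oligodendrocyte markers. In CA3 both lists went the other way than in DG, at 891 and 1829 and at 161474 and 114234. Their part in the lower Bdnf values was not tested.

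The series differed in the subfield pattern of Ntf3. In CA3 the means were 44.9 ± 15.9 normalised reads in the lower and 69.2 ± 36.8 in the upper series, while in DG they were 182 ± 40.8 and 139.5 ± 49.5. The difference between series was 0.96 larger in CA3 than in DG (adjusted p = 0.00293, limma) in the Illumina and 1.157 (adjusted p = 0.00589) in the Ion Proton table. In CA3 summed dentate granule markers had medians of 891 and 1829 in the lower and upper series. Without the 11 libraries no member had a difference between series that varied between subfields past the threshold (0 of 15, against 3 of 15 with them, where 39.7% of all genes passed for CA1 and CA3, 0.98% for CA1 and DG and 48.7% for CA3 and DG). Over all genes 38.3%, 0.558% and 44.5% still passed for these pairs without the 11 libraries.

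**Figure D5:**
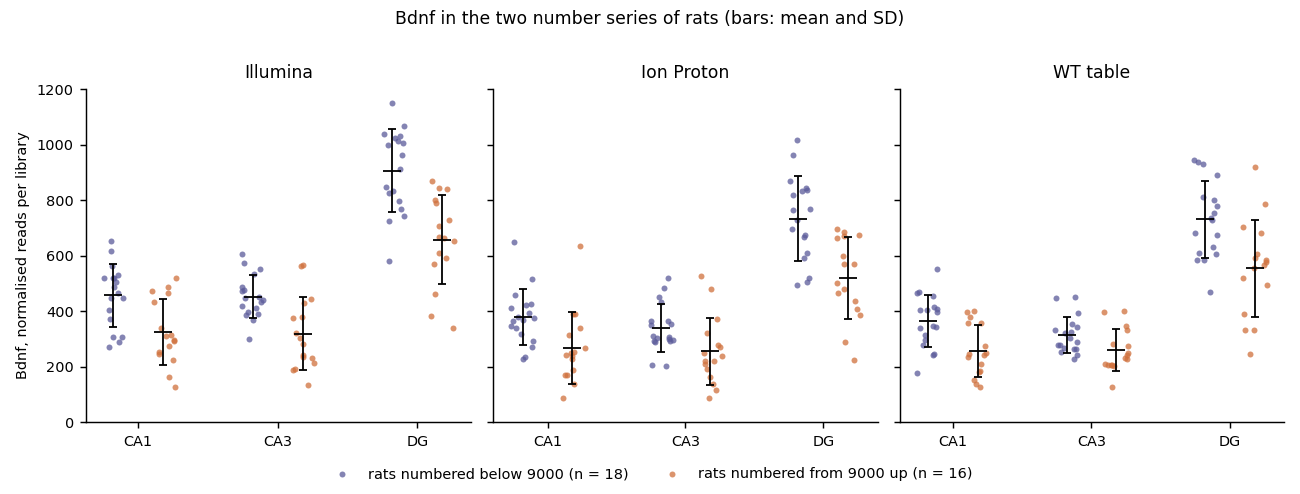
Normalised reads of Bdnf (vertical axis, linear) in every library of the Illumina, Ion Proton and WT tables by subfield, for 18 rats numbered below 9000 and 16 numbered from 9000 up, with mean and SD bars. The mean of the upper series is below that of the lower series in each of the 9 pairs, the points of the Illumina table overlap, and DG is highest in both series.

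One dentate library, of young rat R9881, set the upper end of Ngfr. It held 194.9 normalised reads (159 reads) in the Illumina table, 201 in the Ion Proton and 104 in the WT table, while the other 9 young DG libraries held 2.83 to 15.8 in the Illumina table. The CA1 and CA3 libraries of the same rat had 11.7 and 18.8. In the Illumina table Bdnf in the same DG library was the lowest of the 34, at 340, and Ntf3 was 93.2 against a median of 160.5. In the Ion Proton table its Bdnf was 287, above the lowest DG value of 225. Further genes were looked at after these values were seen. In the Illumina table Chat, the enzyme of acetylcholine synthesis, was at 36.8 (median of 34 DG libraries 0.186). Lhx8, a transcription factor of forebrain cholinergic neurons, was at 87.0 (median 0), and Mbp, a myelin gene, at 109737 (median 38990). Chat was at 31.7 and Lhx8 at 64.5 in the Ion Proton table, where both medians were 0. Ttr and Insrr were also highest in this library among the DG libraries of the Ion Proton table, with Ttr at 4296.6 (median 185.2). Gbx1, at 9.05 there, was below the highest DG value of 15.32. The part of these genes in the Ngfr value was not tested. Without this library the mean difference of Ngfr between CA1 and DG was 1.04 on the log2 scale.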

How the data were processed

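Gene-level values of 34 libraries per subfield in each of 3 deposited tables were used. The authors had divided featureCounts read counts by a size factor per library made with DESeq2, so the deposited unit is a normalised signal, not a raw count. Illumina reads had been demultiplexed with bcl2fastq 2.17, trimmed with CutAdapt 1.8.3, aligned to rn5 with STAR 2.5 and counted with featureCounts 1.4.4, with these versions and DESeq2 1.16.1 as the submitters' processing notes give them. The study's methods name another DESeq2 version. The labels and the methods name different TruSeq kits, so whether strand was used in counting is unknown, and overlapping antisense genes can share reads. For Ion Proton reads the aligners were TopHat2 and Bowtie2, with featureCounts as the counter. For the WT table these steps were not given in the sources used here. Values were whole multiples of 1 step in each library, which returned whole reads for 100% of values (tolerance 0.01 reads) and gave the depths, the precision of which covers counting error only.

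Genes with a mean of at least 10 were tested with limma 3.58.1 (R 4.3.3, trend on the mean) on log2(value + 1), which understates changes of low genes, with Benjamini-Hochberg adjustment over all genes tested in a table. The comparison of subfields used 1 fit per table with all its libraries, in which a gene passed when both poly-A tables gave an adjusted p under 0.05 and 1 direction. Age and cognition were compared within a subfield, and a gene passed at an adjusted p under 0.05 in the Illumina table. Where a comparison of 2 subfields is tested, libraries of the same rat share an animal. The rat number pairs them, since they come from the same animal, and same-rat deviations from the group means had median correlations of 0.0866 (CA1 and CA3), 0.189 (CA1 and DG) and -0.0324 (CA3 and DG). The fit was tested on simulated data with known changes. These libraries were drawn independently, so the test cannot speak to shared rats, number series or libraries nearer to another subfield. Alternatives were edgeR 4.0.16 and DESeq2 1.42.0 on the recovered reads, a pseudocount of 0.1, no filter, quantile normalisation, leaving out libraries or rats, the number series as a term and the rat as a block.

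The 5 members were named in every comparison. Of the 7 pathway lists, up to 2 genes called with the largest change were named per list and subfield contrast, and any gene passing for age or cognition, with the 3 genes most like each member. The members and lists were chosen with earlier results of these data known. A library was called nearer to another subfield by its distance to the mean marker scores of each subfield. Promoter letters are from RefSeq (GRCr8). Protein sequences were not used here. Some genes of the lists are not reported here.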

Additional observations from a re-analysis of the deposited data

Results flagged for a closer look

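In the young groups of 10 rats, each member, subfield and table was examined for a highest or lowest sample that stands apart from the rest by Dixon's test, and 7 of 45 groups had one, where chance gives about 1 in 20 of independent groups. These were not independent, since the 3 tables read the same samples and the subfields the same rats, so the count is no sign of an excess. Groups of 12 rats were not examined. Rat R9881 accounted for 6 of them. Its DG library held Ngfr at 194.9 normalised reads in the Illumina, 201 in the Ion Proton and 104 in the WT table, where the next highest young rat held 15.8, 16.1 and 15.7. The same library was the lowest for Ntrk3 in the Ion Proton table at 738 (next 1041) and for Bdnf in the WT table at 244 (next 494), and the CA3 library of this rat was the highest young one for Ntf3 in the Illumina table at 85.1 (next 55.0). The DG library of young rat R9877 was the lowest for Ntrk2 in the WT table at 2708, with the next at 2870.01.

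Differences between number series that differed between subfields, tested as an interaction with limma, concerned Ntf3 and Ntrk3. For Ntf3 the difference in CA1 minus that in CA3 was -0.74 in the Illumina (adjusted p = 0.0285) and -1.11 in the Ion Proton table (adjusted p = 0.00961), and that in CA3 minus that in DG was 0.96 and 1.157. For Ntrk3 the difference in CA3 minus that in DG was 0.30 in the Illumina table (adjusted p = 0.0232) and 0.18 (adjusted p = 0.276) in the Ion Proton table. These series were defined by rat number after the data were seen and are not groups that the labels give.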

How the results depend on the processing

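The counts of members called were the same, within 1.5 times, in 129 of 141 recomputed counts. All 157 recomputed values of the 15 called member differences kept their direction, and 19 of them lost the threshold. Of 453 recomputed values of differences that had not passed, 10 passed: Ntrk2 between CA1 and DG with quantile normalisation, without the libraries nearer to another subfield, with the number series as a term, in rats numbered below 9000 and with the rat as a block, and between series in CA3 Ntrk2 with DESeq2 and quantile normalisation, Ntf3 with edgeR and DESeq2 and Ngfr without the deeply sequenced rats. None of 320 recomputed age and cognition values passed. The exceptions among counts were CA1 against CA3 with 0 called in rats numbered from 9000 up (beside 3.95% of all genes), CA3 against DG with 3 in rats numbered below 9000 (beside 23.4%), and, for the difference of number series between subfields, 0 without the libraries nearer to another subfield. For the number series in CA1 the count was 1 with edgeR, with no filter and without those libraries. In CA3 it was 2 with DESeq2 and with quantile normalisation and 0 with no filter, and in DG it was 1 without those libraries, without the deeply sequenced rats and without the dentate library of rat R9881. With the rat as a replicate block 1, 5 and 5 members passed between CA1 and CA3, CA1 and DG, and CA3 and DG, 4 differences between number series varied between subfields, and no other call changed. Over all genes, age in CA1 gave 44 by limma and between 1 (rats numbered from 9000 up) and 108 (number series as a term), age in CA3 0 and up to 18 (DESeq2), and age in DG 41 and between 10 (rats numbered from 9000 up) and 95. CA1 against CA3 gave 1996 genes, and 551 and 3023 in the upper and lower series, while CA1 against DG called 26.9% of genes, and 15.7% in the lower series.

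A change of sign was seen only for 30 values that had not passed, and the cause was not tested. Without the libraries nearer to another subfield these were Bdnf CA1 against CA3 (-0.0070), Bdnf (-0.0448) and Ntrk3 (-0.0310) with age in CA3, Ntrk3 with cognition in CA1 (-0.0029), Ngfr with cognition in CA3 (0.17), Ntrk2 with cognition in DG (0.0269) and Ntrk3 between series in CA3 (-0.11). In rats numbered below 9000 they were Bdnf (-0.0114) and Ntrk3 (0.0580) for CA1 against CA3, Bdnf (-0.11) and Ntrk3 (-0.14) with cognition in CA1, Ntrk3 with age in CA3 (-0.0031), and Bdnf (-0.29), Ntrk3 (-0.0105) and Ngfr (0.0846) with cognition in CA3. In rats numbered from 9000 up they were Ngfr CA1 against CA3 (-0.0661), Ngfr with age in CA3 (-0.32) and DG (-0.26), Ntrk2 with cognition in CA1 (0.0089) and Ntf3 with cognition in CA3 (0.56). Ntrk2 with cognition in CA1 was also 0.0022 with edgeR, 0.0015 with DESeq2, 0.0066 with quantile normalisation and 0.0381 without the deeply sequenced rats, and without these rats Ngfr with age in DG was -0.0530 and Ntrk3 between series in CA3 -0.0108. Ngfr in DG was -0.93 with age and 0.43 between series with edgeR, and 0.29 between series with DESeq2. With the number series as a term Ntrk3 with cognition in CA1 was -0.0017. Depth limits Ngfr, whose lowest libraries held 3 or fewer reads.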
